A study of Homo sapiens with 18 samples.

Results

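The genes described here are 42 genes of glycolysis and of the response to low oxygen, among 27166 genes measured. They were taken by gene symbol: 19 enzymes and regulators of glycolysis, 4 glucose and lactate transporters, 2 pyruvate dehydrogenase kinases, 6 genes of hypoxia-inducible factor (HIF) and its oxygen sensors, and 11 known HIF targets. All 42 were present in the table. The RNA came from 3 human cancer cell lines, NCIH838 from lung, DLD1 from colon and HUH7 from a hepatocellular carcinoma. In each, cells transduced with lentiCRISPR v2 carrying the guide KDSR g1 (KDSR KO) were set against cells transduced with the same vector carrying a guide that targets no gene (CTRL). There were 3 libraries in each of the 6 groups, called biological triplicates in the design text, and whether each came from a separate infection was not given, so p-values measure the spread between these libraries. In RNA of whole cultures, fewer cells that make a transcript and less of it per cell cannot be told apart. KDSR encodes an enzyme of the endoplasmic reticulum that makes the backbone of sphingolipids. All cells, CTRL included, went through lentiviral infection and 5 days of puromycin, and the cultures were kept at atmospheric oxygen, per the labels; no measure of oxygen in the medium was given. RNA was taken at day 8 in DLD1 and HUH7 and at day 10 in NCIH838. A limit of the model is that all KDSR KO cells carry the same guide.

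Glycolysis splits glucose into pyruvate through a chain of enzymes, most of which exist as several isoforms, and lactate dehydrogenase turns pyruvate into lactate. With oxygen present, prolyl hydroxylases such as EGLN1 mark the HIF alpha subunits for binding by VHL and for breakdown. Without oxygen the alpha subunits, HIF1A or EPAS1, pair with ARNT and switch on genes of glucose uptake, glycolysis, blood vessel growth and mitophagy. HIF is controlled mainly at the protein level, so mRNA levels of HIF1A do not measure its activity. Several targets, among them DDIT4, NDRG1 and VEGFA, are also induced by other stress pathways.

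The libraries held 17039634 to 20385767 reads. Levels are in TPM, the share of all transcripts taken by a gene, which corrects for gene length. KDSR mRNA fell in DLD1, to 19.2 ± 0.413 TPM in KDSR KO against 29.7 ± 2.5 TPM in CTRL (mean ± SD, n = 3 each; limma adjusted p = 0.000775). It was 12.9 ± 0.821 TPM in KDSR KO and 13.4 ± 1.39 TPM in CTRL of NCIH838 (adjusted p = 0.681), and 3.63 ± 0.401 TPM in KDSR KO and 5.79 ± 0.73 TPM in CTRL of HUH7 (adjusted p = 0.114). The log2 change of TPM + 1 was -0.55 in HUH7 and -0.60 in DLD1 (SE 0.094 each). These 2 changes did not differ by limma's test of the difference (adjusted p = 0.88). In NCIH838 the mRNA therefore does not show the knockout, and KDSR KO below names the labelled group. A frameshift need not lower the mRNA. Liver markers were present in HUH7 (8 of 8 at 1 TPM or more) and colon markers in DLD1 (6 of 8, without CDX1 and GPA33). Of 8 lung markers, only KRT7 reached 1 TPM in NCIH838. NKX2-1, NAPSA, SFTPB, SFTPC, SFTPA1, SLC34A2 and SCGB1A1 were below 1 TPM or not in the table.

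Before any knockout, the lines used different isoforms of the same glycolytic steps. PFKP, an isoform of phosphofructokinase, averaged 306 TPM in CTRL cells of NCIH838 and 146 TPM in those of DLD1, but 1.24 TPM in those of HUH7, where PFKL stood at 47.7 TPM. Lactate dehydrogenase B (LDHB) averaged 39.1 TPM in NCIH838 and 12 TPM in DLD1. In HUH7 it was represented by 0 or 1 read per library, while LDHA stood at 1163 TPM. SLC2A3, a high-affinity glucose transporter of neurons, had 121 TPM in NCIH838, 13.7 TPM in DLD1 and 0.632 TPM in HUH7. ALDOC, the brain isoform of aldolase, had 29.8 TPM in NCIH838, 2.07 TPM in DLD1 and 70.2 TPM in HUH7. The LDHB and ALDOA levels are uncertain, because 33.4% and 42.3% of their exonic bases are shared with another annotated gene on the same strand.

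The targets of HIF also started from different levels. BNIP3, a mitophagy receptor, averaged 64.0 TPM in NCIH838 and 151 TPM in HUH7, but 1.15 TPM in DLD1, where 26 to 33 reads per CTRL library came from it. CA9, the cell surface carbonic anhydrase widely used as a hypoxia marker, had 19.3 TPM in HUH7 and 0.294 TPM in NCIH838, and 0.0853 TPM in DLD1, or 0 to 1 read per CTRL library. NDRG1 was at 127 TPM in NCIH838, against 14.0 TPM in DLD1 and 14.2 TPM in HUH7. HIF1A averaged 313 TPM in NCIH838, 168 TPM in DLD1 and 541 TPM in HUH7, and EPAS1 89.6, 27.7 and 165 TPM in the same order. DLD1 thus had the lowest mRNA level of both alpha subunits. Most members differed between control cells of 2 lines, as did most genes. In NCIH838 against HUH7, 40 of 42 members were called at an adjusted p under 0.05, where 73.0% of all genes were. In NCIH838 against DLD1 the count was 38 of 42 (73.0% of all genes), and in DLD1 against HUH7 it was 35 of 42 (70.6% of all genes). The 3 comparisons share control libraries.

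**Figure D1:**
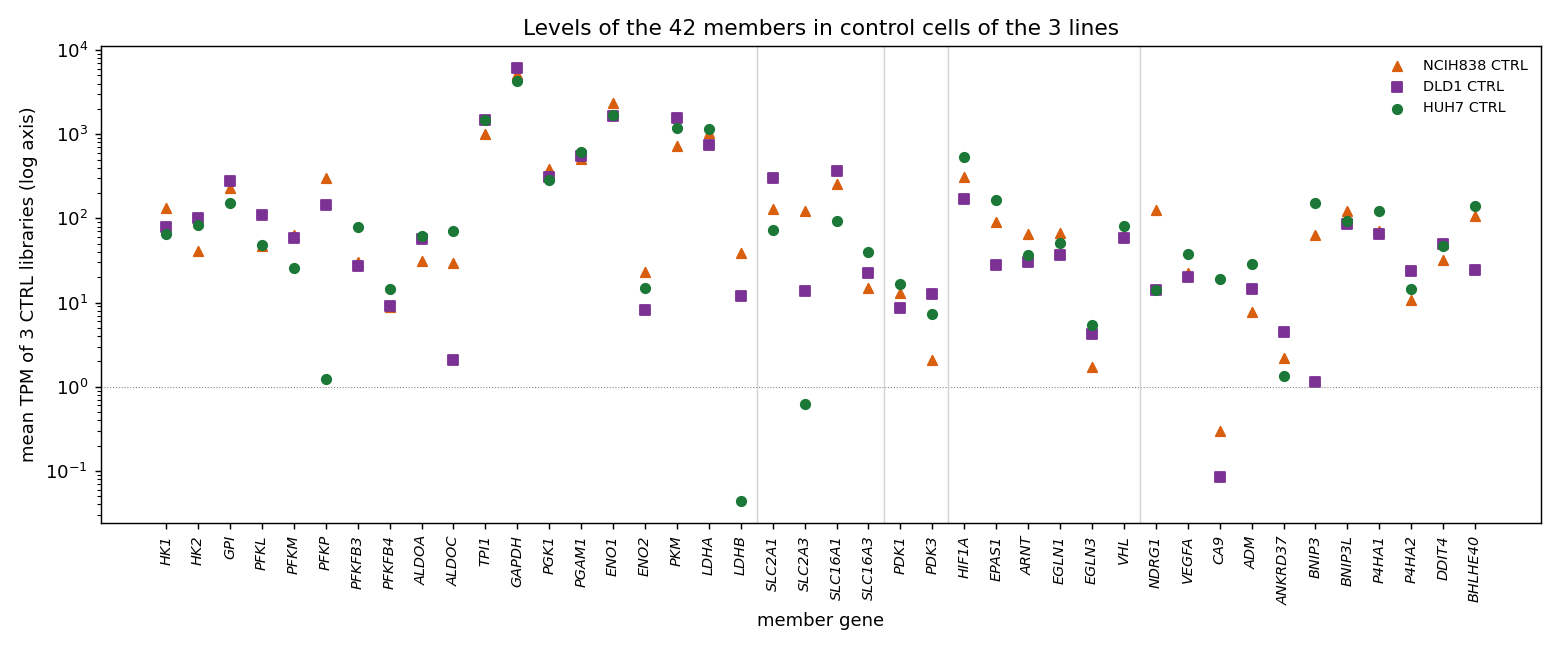
Mean TPM of each of the 42 members over the 3 CTRL libraries of NCIH838 (triangles), DLD1 (squares) and HUH7 (circles), on a log axis; vertical lines part the roles and the dotted line marks 1 TPM. PFKP, LDHB and SLC2A3 were lowest in HUH7, while BNIP3 and ALDOC were lowest in DLD1.

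Knockout cells of NCIH838 and DLD1 had higher levels of several HIF targets. The enzymes of glycolysis split between rises and falls in NCIH838, while 15 of 19 were not called in DLD1. In NCIH838, 22 of 41 members tested were called, 12 higher and 10 lower in KDSR KO. Of all genes 42.5% were called there (15.7% higher, 26.8% lower). In DLD1, 12 of 41 members tested were called, 10 higher and 2 lower (12 and 0 after median ratio scaling), and 17.3% of all genes were called (5.16% higher, 12.1% lower). In HUH7, 0 of 40 members tested were called by limma, and 0% of all genes. The median log2 change of the members tested was 0.03 in NCIH838, 0.05 in DLD1 and -0.02 in HUH7, where that of all genes tested was -0.09, -0.07 and 0.02. Genes were tested in a line if they averaged at least 1 TPM over its 6 libraries, which left out CA9 in NCIH838 and DLD1, and LDHB and SLC2A3 in HUH7. Log2 changes here are of TPM + 1, KDSR KO minus CTRL, and understate the change of genes of low level. The calls in DLD1 moved with scaling: 29.9% of all called genes were higher, but 50.0% after median ratio scaling and 56.0% after quantile normalization. In NCIH838 these shares were 36.9%, 46.8% and 47.3%.

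Between the called members of NCIH838 and DLD1, 6 were higher in both: SLC2A3, NDRG1, VEGFA, ADM, P4HA2 and DDIT4. These made up 50.0% of the 12 higher in NCIH838 and 60.0% of the 10 higher in DLD1. GPI and PFKL were lower in both, 20.0% of the 10 lower in NCIH838 and 100% of the 2 lower in DLD1. Among the 13467 genes tested in both lines, the higher calls shared by both made up 24.1% of those in NCIH838 and 69.8% of those in DLD1, and the shared lower calls 26.2% and 60.5%. The members' shares were not tested against these. There were 0 members called in opposite directions, and 16 were called in neither line. The control libraries of the lines are separate.

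**Figure D2:**
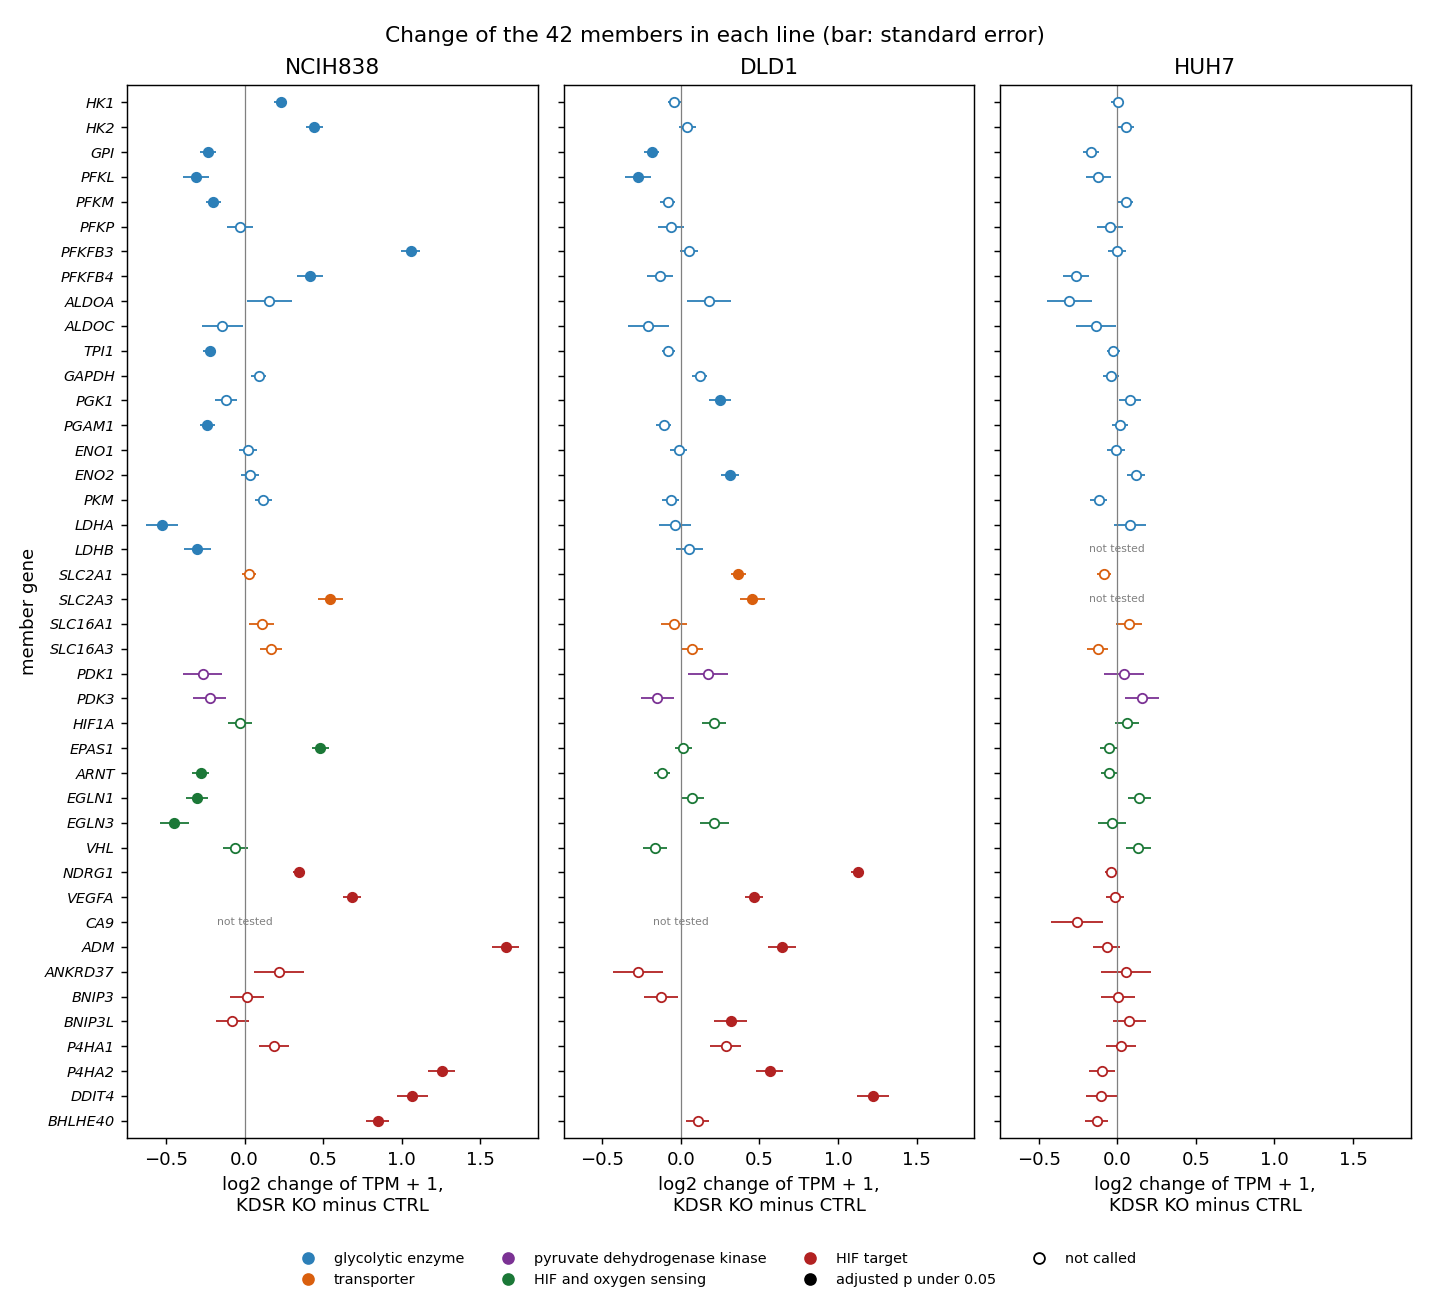
Log2 change of TPM + 1 (KDSR KO minus CTRL) of each member in NCIH838, DLD1 and HUH7, with the standard error as a bar; filled points passed an adjusted p under 0.05, and colours give the role. HIF targets hold the largest rises in NCIH838 (ADM, 1.66) and DLD1 (DDIT4, 1.22), and 0 points are filled in HUH7.

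Among the 11 members listed as HIF targets, 6 of 10 tested rose in NCIH838 and 6 of 10 in DLD1, and 0 fell in either. Of all genes tested, 15.7% rose in NCIH838 and 5.16% in DLD1. The members were chosen with earlier results of these data known, so these counts are not a test. The median log2 change of these targets was 0.52 in NCIH838 and 0.39 in DLD1, and -0.04 over the 11 tested in HUH7. Some HIF targets were listed under other roles. Of those named as such below, LDHA and EGLN3 fell in NCIH838, and PDK1 and SLC16A3 passed in neither line. The remaining members of those roles were not sorted by whether HIF controls them. In those roles SLC2A3 rose in both lines, HK1, HK2, PFKFB3, PFKFB4 and EPAS1 in NCIH838, and SLC2A1, PGK1 and ENO2 in DLD1. All 10 falls of members in NCIH838 and the 2 in DLD1 were in those roles too. ADM encodes adrenomedullin, a peptide that widens blood vessels. It had 24.0, 30.8 and 24.8 TPM in KDSR KO of NCIH838, against 7.17, 8.68 and 7.19 TPM in CTRL. In KDSR KO of DLD1 it had 24.4, 22.8 and 22.3 TPM, against 14.7, 13.7 and 15 TPM in CTRL. In both lines the lowest KDSR KO library lay above the highest CTRL library. The log2 change was 1.66 in NCIH838 (SE 0.09, adjusted p = 2.3e-09) and 0.64 in DLD1 (SE 0.09, adjusted p = 0.000235). HUH7 had more ADM than either line at the start and 27.4 ± 0.991 TPM in KDSR KO, against 28.8 ± 1.53 TPM in CTRL.

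P4HA2, a catalytic subunit of the collagen prolyl 4-hydroxylase, had 25.4, 30.4 and 26.2 TPM in KDSR KO of NCIH838, against 11, 10.3 and 11.2 TPM in CTRL. In DLD1 it had 36.6, 34.2 and 35.9 TPM in KDSR KO, against 22.0, 24.8 and 24.5 TPM in CTRL. The groups did not overlap in either line, and the log2 changes were 1.25 (adjusted p = 2.74e-08) and 0.57 (adjusted p = 0.000511) in that order. Its paralogue P4HA1 did not pass, with 80.4 TPM in KDSR KO and 70.4 TPM in CTRL of NCIH838 (adjusted p = 0.142) and 79.2 TPM in KDSR KO and 64.9 TPM in CTRL of DLD1 (adjusted p = 0.057). In DLD1 the P4HA1 libraries of the groups did not overlap, and the gene passed under 6 of 16 alternative settings (adjusted p 0.00766 to 0.19 over all 16).

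DDIT4 encodes an inhibitor of the growth kinase complex mTORC1. It had 59.3, 81.1 and 64.7 TPM in KDSR KO of NCIH838, against 29.8, 34.4 and 31.3 TPM in CTRL. DLD1 had 118, 115 and 117 TPM in KDSR KO, against 44.5, 53.7 and 50.3 TPM in CTRL. Every KDSR KO library of both lines was above all CTRL libraries of its line. The log2 changes were 1.07 (SE 0.10, adjusted p = 1.06e-06) in NCIH838 and 1.22 (SE 0.10, adjusted p = 1.56e-06) in DLD1. An antisense gene covers 41.2% of the exonic bases of DDIT4. Whether counting used strand was not given, so reads of the pair cannot be told apart.

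NDRG1, a stress-responsive gene long used as a readout of hypoxia, was the member with the smallest p in DLD1. Its 31.5, 31 and 32.7 TPM in KDSR KO there stood against 13.9, 14.1 and 14.0 TPM in CTRL, a log2 change of 1.12 (SE 0.04, adjusted p = 8.58e-11). In NCIH838 it had 164, 166 and 154 TPM in KDSR KO, against 126, 127 and 127 TPM in CTRL, a log2 change of 0.35 (SE 0.04, adjusted p = 7.35e-06). The groups were apart in both lines, by a larger factor in DLD1, where the gene started at the lower level. Its change in NCIH838 was smaller than in DLD1 by a log2 difference of -0.78 (adjusted p = 5.25e-07).

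VEGFA, the main growth factor of blood vessels, had 35.9, 39 and 35.9 TPM in KDSR KO of NCIH838, against 22.8, 23.2 and 21.8 TPM in CTRL. DLD1 cells had 27.6, 26.8 and 29.9 TPM of it in KDSR KO, against 18.9, 20.8 and 20.4 TPM in CTRL. All KDSR KO libraries of both lines were again above CTRL, with log2 changes of 0.69 (adjusted p = 3.23e-07) in NCIH838 and 0.47 (adjusted p = 0.000103) in DLD1. BHLHE40, a transcriptional repressor, passed in NCIH838, at 176, 215 and 185 TPM in KDSR KO against 96.1, 112 and 110 TPM in CTRL (log2 change 0.85, adjusted p = 4.01e-07). In DLD1 it had 26.4 TPM in KDSR KO and 24.5 TPM in CTRL, with overlapping libraries (adjusted p = 0.336). The change in NCIH838 exceeded that in DLD1 by 0.74 (adjusted p = 0.000221).

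BNIP3L, a mitophagy receptor, had 106, 111 and 107 TPM in KDSR KO of DLD1, against 90.7, 94.2 and 75.5 TPM in CTRL (log2 change 0.32, adjusted p = 0.0499). The groups did not overlap, but the call ended in 9 of 16 alternative settings, among them each fit that leaves out a library other than CTRL replicate 2 (adjusted p 0.0103 to 0.207 over all 16). NCIH838 had 115 TPM of it in KDSR KO and 121 TPM in CTRL (adjusted p = 0.574). Its relative BNIP3 averaged 64.8 TPM in KDSR KO and 64.0 TPM in CTRL of NCIH838, and 0.993 TPM in KDSR KO and 1.15 TPM in CTRL of DLD1, and passed in neither. CA9 had 0.782, 0.326 and 0.762 TPM in KDSR KO of NCIH838, against 0.108, 0.11 and 0.662 TPM in CTRL, which is 3 to 7 reads against 1 to 6 reads per library. DLD1 cells had 0 to 1 read of CA9 in every library of both groups. CA9 was not tested in these lines, and at these counts a fall could not be seen. No KDSR KO library of either line held more than 7 reads of it. HUH7, the line with CA9 mRNA, had 13.3, 16.8 and 18.1 TPM in KDSR KO and 18.3, 18.1 and 21.7 TPM in CTRL, ranges that touched at 18.1 TPM (adjusted p = 0.525). ANKRD37, an ankyrin repeat protein, averaged 1.35 to 4.42 TPM in the CTRL groups and passed in none of the lines. On the other strand, ARHGEF39 shares 38.5% of the exonic bases of CA9, and UFSP2 35.2% of those of ANKRD37. These 2 genes averaged 18.2 and 31.4 TPM over all libraries. With the strand setting not given, the levels of CA9 and ANKRD37 are uncertain.

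In NCIH838, KDSR KO replicate 2 held the highest value of ADM, P4HA2, DDIT4 and BHLHE40 and the lowest of LDHA and EGLN1 among the KDSR KO libraries. Without it, 22 members were called, the same number as with it, but LDHB was lost and ALDOC gained. Some differences between lines also ended without it, as given below. Of 16 genes of other stress programmes, 14 rose and 0 fell in NCIH838, 12 rose and 1 fell in DLD1, and 0 were called in HUH7. Of all genes tested, 15.7% rose and 26.8% fell in NCIH838, and 5.16% and 12.1% in DLD1. The 16 were chosen with earlier results of these data known, so their counts are not a test. MYC fell in DLD1 (log2 change -0.29) and rose in NCIH838 (1.14). The heat shock gene HSPA1B, whose reads may be split with its near-identical copy HSPA1A, had 960 TPM in KDSR KO and 51.3 TPM in CTRL of NCIH838, and 1446 TPM in KDSR KO and 138 TPM in CTRL of DLD1. DDIT3, the stress transcription factor CHOP, had 90.8 TPM in KDSR KO and 24.4 TPM in CTRL of DLD1. SESN2, another stress-induced inhibitor of mTORC1, had 133 TPM in KDSR KO and 39.8 TPM in CTRL of NCIH838. Their part in the rise of the HIF targets was not tested.

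**Figure D3:**
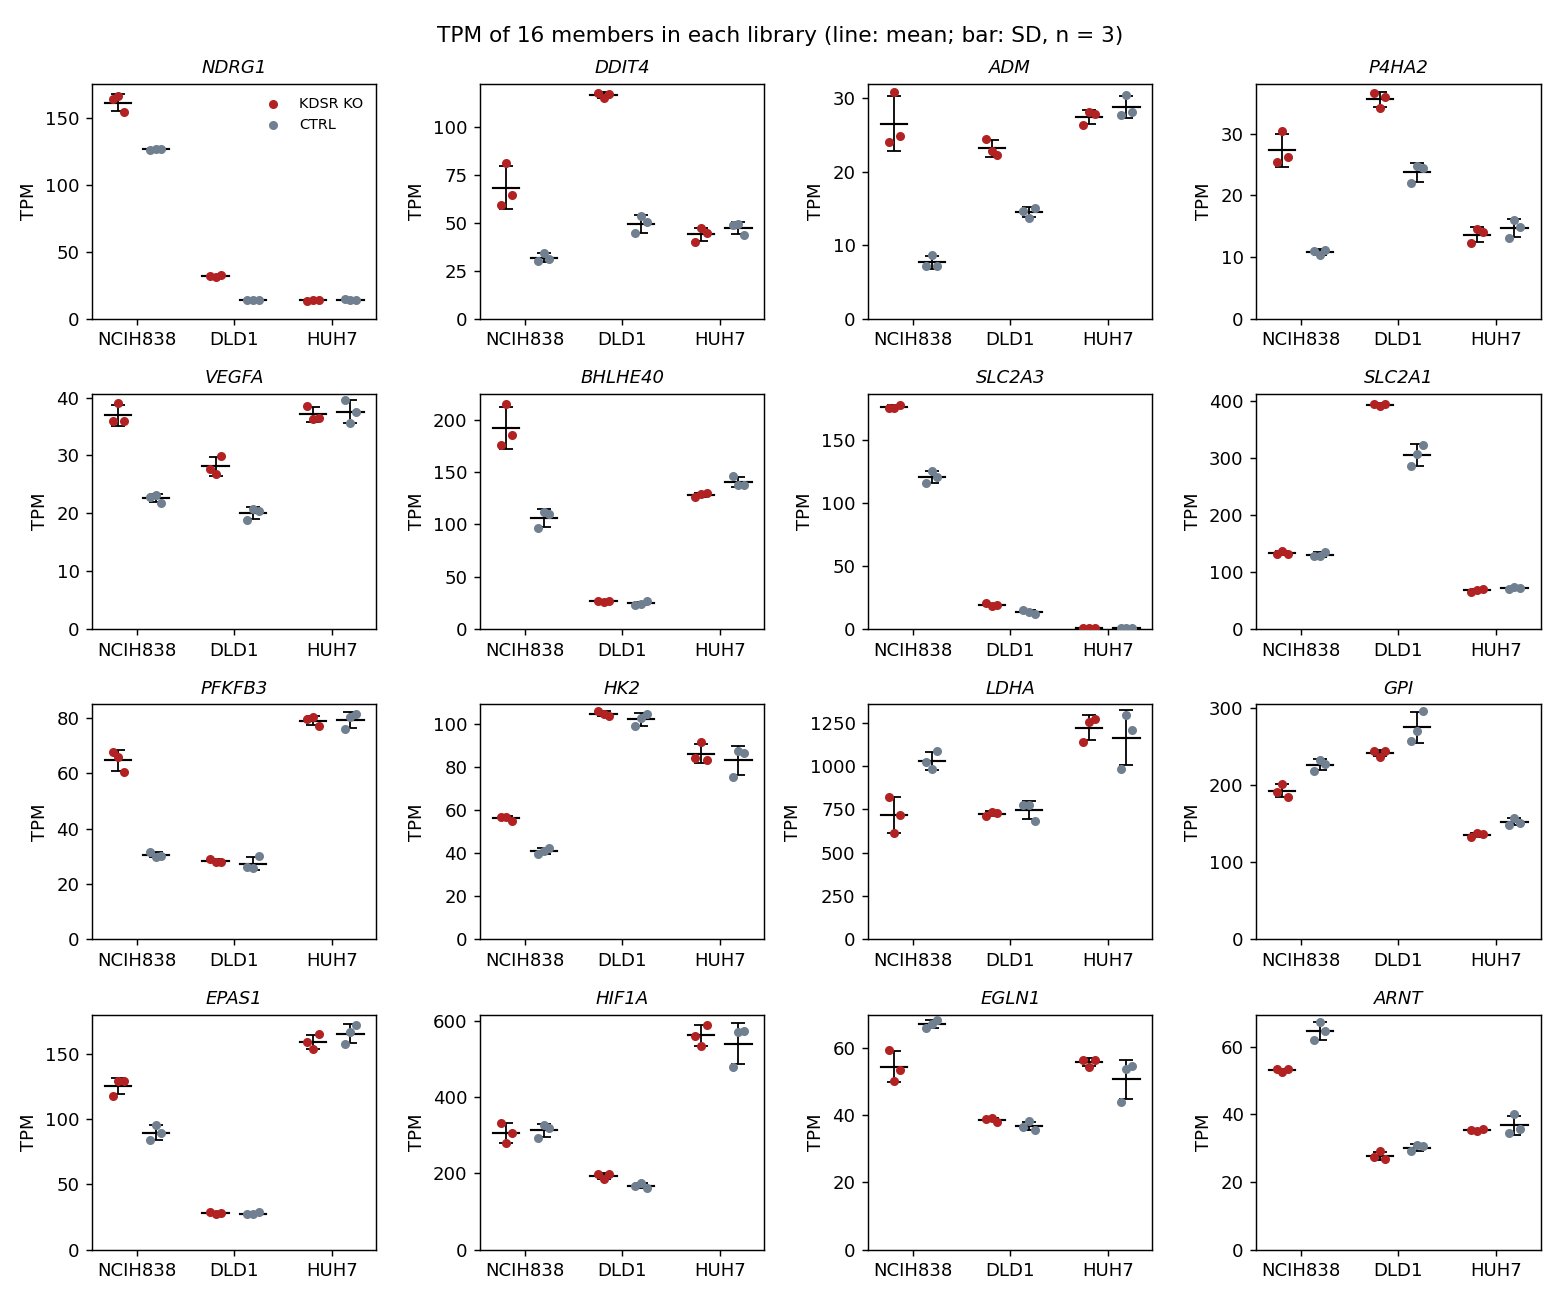
TPM of 16 members in each library, KDSR KO (red) left of CTRL (grey) in NCIH838, DLD1 and HUH7; the line is the mean and the bar the SD (n = 3). DDIT4 in DLD1 sits at 115 to 118 TPM in KDSR KO and 44.5 to 53.7 TPM in CTRL, and LDHA in NCIH838 is lower in all KDSR KO libraries.

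To show the sequence in front of members that moved, 300 bases around the RefSeq transcript start (GRCh38.p14, 250 bases before it and 50 after) are given for 3 members that were higher in both lines and 2 that were lower. Capitals mark ACGTG or GCGTG, the core of the hypoxia response element to which HIF binds, on either strand, so that CACGT and CACGC are their reverse complements. CACGTG reads the same on both strands, and it is also the E-box bound by other factors, with which ACGTG overlaps. DDIT4, with 1 ACGTG and 3 GCGTG, lies on chr10:72273674-72273973, plus strand. ADM, with 1 GCGTG, lies on chr11:10304823-10305122, plus strand. P4HA2, with neither, lies on chr5:132227042-132227341, minus strand. LDHA, lower in NCIH838, lies on chr11:18394313-18394612, plus strand, and holds 2 copies of CACGTG, another ACGTG and 1 GCGTG. PFKL, lower in both lines, lies on chr21:44299803-44300102, plus strand, and holds 1 GCGTG.
DDIT4: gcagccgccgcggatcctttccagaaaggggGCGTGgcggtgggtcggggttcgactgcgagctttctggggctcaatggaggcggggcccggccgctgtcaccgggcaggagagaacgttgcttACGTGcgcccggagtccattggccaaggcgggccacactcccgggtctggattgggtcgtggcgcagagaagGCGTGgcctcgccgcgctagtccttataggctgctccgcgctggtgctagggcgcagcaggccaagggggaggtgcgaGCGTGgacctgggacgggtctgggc
ADM: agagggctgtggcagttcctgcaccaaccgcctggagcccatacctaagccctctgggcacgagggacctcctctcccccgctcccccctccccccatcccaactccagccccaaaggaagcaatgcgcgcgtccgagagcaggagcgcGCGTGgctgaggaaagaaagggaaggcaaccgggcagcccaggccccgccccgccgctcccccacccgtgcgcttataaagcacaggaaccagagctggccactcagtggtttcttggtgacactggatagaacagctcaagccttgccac
P4HA2: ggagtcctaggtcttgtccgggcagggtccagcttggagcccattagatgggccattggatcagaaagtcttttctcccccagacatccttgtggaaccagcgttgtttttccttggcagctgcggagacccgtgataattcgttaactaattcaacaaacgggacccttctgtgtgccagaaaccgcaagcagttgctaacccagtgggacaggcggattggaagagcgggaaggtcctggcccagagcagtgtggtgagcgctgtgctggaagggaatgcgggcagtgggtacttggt
LDHA: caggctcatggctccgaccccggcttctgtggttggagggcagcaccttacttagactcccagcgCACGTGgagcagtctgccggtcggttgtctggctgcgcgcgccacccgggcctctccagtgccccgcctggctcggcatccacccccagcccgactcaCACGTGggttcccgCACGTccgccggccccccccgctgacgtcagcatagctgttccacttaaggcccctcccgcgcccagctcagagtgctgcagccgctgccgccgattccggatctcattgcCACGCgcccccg
PFKL: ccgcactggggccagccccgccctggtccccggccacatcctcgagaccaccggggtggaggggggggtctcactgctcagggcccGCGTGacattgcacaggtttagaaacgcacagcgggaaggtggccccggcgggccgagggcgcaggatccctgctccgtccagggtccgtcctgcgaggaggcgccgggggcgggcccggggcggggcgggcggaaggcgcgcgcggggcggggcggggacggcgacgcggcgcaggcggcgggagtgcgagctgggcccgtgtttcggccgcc
A promoter was matched by symbol for 36 of the 42 members, without SLC2A3, SLC16A1, VHL, NDRG1, VEGFA and BNIP3L. ACGTG or GCGTG occurred in 26 of the 36 (72.2%), and in 48.4% of all 27305 promoters. ACGTG alone was in 16 members and 21.6% of all promoters, GCGTG in 17 members and 36.3% of all promoters, and CACGTG in 6 members and 7.43% of all promoters. The motif TGATGNAA, read by factors such as ATF4 and CHOP, was in 1 member, HK1, and in 3.67% of all promoters. By role, 7 of 8 matched HIF targets and 14 of 19 enzymes held ACGTG or GCGTG, so the letters were present in front of genes that rose and genes that did not. A match is not a shown binding site.

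Of the glucose transporters, SLC2A3 rose in both lines and SLC2A1 in DLD1. SLC2A3 had 176, 176 and 178 TPM in KDSR KO of NCIH838, against 116, 126 and 121 TPM in CTRL. In DLD1 it had 20.3, 18.2 and 18.7 TPM in KDSR KO, against 15, 13.8 and 12.2 TPM in CTRL. The groups were apart in both lines, with log2 changes of 0.55 (adjusted p = 6.21e-05) and 0.45 (adjusted p = 0.00154) in that order. SLC2A1, the widely expressed glucose transporter, had 396, 392 and 395 TPM in KDSR KO of DLD1, against 286, 308 and 324 TPM in CTRL (log2 change 0.37, adjusted p = 0.00011). In NCIH838 it had 131, 137 and 132 TPM in KDSR KO, against 128, 129 and 135 TPM in CTRL, and the libraries overlapped (adjusted p = 0.639). The change in NCIH838 was smaller than in DLD1 by -0.34 (adjusted p = 0.00266).

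The lactate carriers did not pass in any line. SLC16A1 had 278 TPM in KDSR KO and 258 TPM in CTRL of NCIH838 (adjusted p = 0.305), and 354 TPM in KDSR KO and 365 TPM in CTRL of DLD1 (adjusted p = 0.755). SLC16A3, the carrier tied to lactate export and a known HIF target, had 16.8, 17.9 and 15.9 TPM in KDSR KO of NCIH838, against 14.0, 15.5 and 15.1 TPM in CTRL (log2 change 0.17, adjusted p = 0.0554). Its libraries there did not overlap, and it passed in 6 of 16 alternative settings (adjusted p 0.00655 to 0.191 over all 16). Summed over the 4 carriers, NCIH838 had 605 ± 18.5 TPM in KDSR KO and 524 ± 7.18 TPM in CTRL, and DLD1 had 791 ± 5.87 TPM in KDSR KO and 707 ± 22 TPM in CTRL.

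The 19 enzymes and regulators of glycolysis split in NCIH838, where 4 rose and 7 fell (15.7% and 26.8% of all genes). The 4 that rose were HK1 and HK2, hexokinases that trap glucose in the cell, and the bifunctional enzymes PFKFB3 and PFKFB4. The last 2 set the level of the activator of phosphofructokinase. Of the phosphofructokinases themselves, PFKL and PFKM fell and PFKP did not pass. PFKFB3 had 67.7, 66.0 and 60.4 TPM in KDSR KO of NCIH838, against 31.6, 29.9 and 30.1 TPM in CTRL. The log2 change was 1.06 (SE 0.06, adjusted p = 3.51e-09), and no CTRL library reached the lowest KDSR KO library. In DLD1 the gene had 28.4 TPM in KDSR KO and 27.4 TPM in CTRL (adjusted p = 0.574), and the change in NCIH838 exceeded that in DLD1 by 1.0 (adjusted p = 1.77e-06). PFKFB4 had 11.2, 12.5 and 12.6 TPM in KDSR KO of NCIH838, against 9.52, 9.18 and 7.79 TPM in CTRL (log2 change 0.41, adjusted p = 0.000992).

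HK2, the inducible hexokinase, had 57.0, 57.1 and 55.2 TPM in KDSR KO of NCIH838, against 39.9, 41.3 and 42.7 TPM in CTRL. HK1, the constitutive form, had 158, 156 and 156 TPM in KDSR KO, against 127, 137 and 137 TPM in CTRL. Neither gene had overlapping groups, and the log2 changes were 0.44 (adjusted p = 1.43e-05) for HK2 and 0.23 (adjusted p = 0.000352) for HK1. In DLD1, HK2 had 106, 105 and 104 TPM in KDSR KO, against 99.1, 103 and 105 TPM in CTRL, and HK1 had 76.2 TPM in KDSR KO and 78.6 TPM in CTRL. Neither passed there, and the difference between the lines passed for both (0.40 for HK2, adjusted p = 0.00258, and 0.27 for HK1, adjusted p = 0.00477).

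The 7 that fell in NCIH838 were LDHA, LDHB, PFKL, PFKM, GPI, TPI1 and PGAM1. LDHA, which makes lactate and is a classic HIF target, fell to 824, 616 and 718 TPM in KDSR KO, against 1021, 981 and 1085 TPM in CTRL. All 3 KDSR KO libraries lay below the lowest CTRL library, and the log2 change was -0.53 (SE 0.10, adjusted p = 0.000778). LDHA of DLD1 had 711, 735 and 732 TPM in KDSR KO and 775, 777 and 685 TPM in CTRL, with overlap (adjusted p = 0.847). The change in NCIH838 lay below that in DLD1 by -0.49 (adjusted p = 0.0302), a call that ended with the replicate block and in 7 fits that leave out a library: those without CTRL replicate 3 or KDSR KO replicate 2 or 3 of DLD1, or without CTRL replicate 1 or 3 or KDSR KO replicate 2 or 3 of NCIH838 (adjusted p 0.00373 to 0.0784 over all 21 alternatives). LDHB of NCIH838 had 32.5, 27.7 and 35 TPM in KDSR KO, against 38.4, 38.5 and 40.4 TPM in CTRL (log2 change -0.30, adjusted p = 0.0106). That call ended with a pseudocount of 0.1 (adjusted p = 0.277) and without KDSR KO replicate 2 (0.061), in a range of 0.00503 to 0.277 over all alternatives.

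GPI, the isomerase after hexokinase, had 192, 202 and 185 TPM in KDSR KO of NCIH838, against 219, 233 and 228 TPM in CTRL (log2 change -0.23, adjusted p = 0.00146). DLD1 cells had 244, 237 and 244 TPM of GPI in KDSR KO, against 258, 271 and 297 TPM in CTRL (log2 change -0.19, adjusted p = 0.0183). The groups did not overlap in either line, nor in HUH7, where 133, 138 and 137 TPM in KDSR KO stood against 149, 158 and 151 TPM in CTRL without passing (log2 change -0.17, adjusted p = 0.338). The liver-type phosphofructokinase PFKL had 34.4, 41.9 and 36.5 TPM in KDSR KO of NCIH838, against 43.7, 50.3 and 46.3 TPM in CTRL (log2 change -0.31, adjusted p = 0.00692). DLD1 had 94.2, 90.8 and 86.8 TPM of it in KDSR KO, against 101, 106 and 123 TPM in CTRL (log2 change -0.28, adjusted p = 0.0323). In DLD1 the call of GPI ended in 4 of 16 alternative settings and that of PFKL in 9 of 16. For GPI these included median ratio scaling and the fits without CTRL replicate 3 or KDSR KO replicate 2 (adjusted p 0.00741 to 0.0845 over all 16). For PFKL they included median ratio scaling, quantile normalization and each fit that leaves out a library other than CTRL replicate 1 (0.0164 to 0.147).

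The other falls in NCIH838 were small. The muscle-type isoform PFKM had 57.7, 56.4 and 53.5 TPM in KDSR KO, against 63.5, 63.7 and 65.6 TPM in CTRL (log2 change -0.20). TPI1, which interconverts the triose phosphates, had 897, 888 and 822 TPM in KDSR KO, against 1012, 984 and 1045 TPM in CTRL (log2 change -0.22). PGAM1, the phosphoglycerate mutase, had 444, 441 and 398 TPM in KDSR KO, against 496, 510 and 503 TPM in CTRL (log2 change -0.24). Each of the 3 had non-overlapping groups, with adjusted p = 0.00362, 0.000418 and 0.00128 in that order. TPI1, PGAM1, LDHA, PKM and GAPDH have pseudogenes in the table, and how reads matching several places were handled was not given.

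In DLD1, 2 of the 19 rose and 2 fell, GPI and PFKL, where 5.16% of all genes rose and 12.1% fell. PGK1, the enzyme of the ATP-making step after GAPDH, had 359, 385 and 374 TPM in KDSR KO, against 309, 325 and 306 TPM in CTRL (log2 change 0.25, adjusted p = 0.0226). The groups did not overlap, but the call ended in 4 of the fits that leave out a library (those without CTRL replicate 1 or 3 or KDSR KO replicate 2 or 3; adjusted p 0.00131 to 0.0819 over all alternatives). ENO2, the neuronal enolase, had 10.9, 11 and 9.28 TPM in KDSR KO, against 8.09, 8.01 and 8.43 TPM in CTRL (log2 change 0.31, adjusted p = 0.00241). For both genes the change in NCIH838 lay below that in DLD1, by -0.37 for PGK1 (adjusted p = 0.0175) and -0.27 for ENO2 (adjusted p = 0.0299). The call of the ENO2 difference ended in 10 of 21 alternatives, which were median ratio scaling, quantile normalization, limma voom and the fits without CTRL replicate 1 or 2 or KDSR KO replicate 1 or 2 of DLD1, or without CTRL replicate 1 or 2 or KDSR KO replicate 2 of NCIH838 (adjusted p 0.00422 to 0.0812). In NCIH838, PGK1 had 354 TPM in KDSR KO and 384 TPM in CTRL, and ENO2 had 23.8 TPM in KDSR KO and 23.2 TPM in CTRL.

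Of the most abundant enzymes, GAPDH, ENO1 and PKM did not pass. GAPDH averaged 5531 TPM in KDSR KO and 5192 TPM in CTRL of NCIH838 (adjusted p = 0.156), and 6729 TPM in KDSR KO and 6201 TPM in CTRL of DLD1 (adjusted p = 0.108; its log2 value was 0.12, and -0.37 after quantile normalization). ENO1, the main enolase, had 2413 TPM in KDSR KO and 2374 TPM in CTRL of NCIH838 (adjusted p = 0.78). PKM, the pyruvate kinase of most tissues, had 785 TPM in KDSR KO and 722 TPM in CTRL of NCIH838 (adjusted p = 0.0862). The summed level of the 19 was 12092 ± 504 TPM in KDSR KO and 12199 ± 280 TPM in CTRL of NCIH838, and 13729 ± 107 TPM in KDSR KO and 13426 ± 660 TPM in CTRL of DLD1. In each line the sums differed by less than the larger of the 2 SDs. Over the enzymes not called, log2 changes ran between -0.14 and 0.16 in NCIH838 and between -0.21 and 0.18 in DLD1.

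The pyruvate dehydrogenase kinases, which inhibit pyruvate dehydrogenase, did not pass. PDK1, a HIF target, had 11.6, 9.38 and 11.1 TPM in KDSR KO of NCIH838, against 12.7, 13.8 and 12.6 TPM in CTRL. The groups there did not overlap, with KDSR KO below (log2 change -0.27, adjusted p = 0.101). In DLD1, PDK1 had 9.54, 9.41 and 10.0 TPM in KDSR KO and 8.98, 9.89 and 6.78 TPM in CTRL, with overlap (log2 change 0.17, adjusted p = 0.379). PDK3 averaged 1.64 TPM in KDSR KO and 2.08 TPM in CTRL of NCIH838 (adjusted p = 0.107), and 11.1 TPM in KDSR KO and 12.5 TPM in CTRL of DLD1 (adjusted p = 0.362).

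Of the 6 HIF subunits and oxygen sensors, 1 rose and 3 fell in NCIH838 (15.7% and 26.8% of all genes). By limma, DLD1 had 0 of 6 called (1 with limma voom, HIF1A), with 4 at an unadjusted p under 0.05. HIF1A had 333, 279 and 307 TPM in KDSR KO of NCIH838, against 293, 327 and 319 TPM in CTRL, and the libraries overlapped (adjusted p = 0.764). In DLD1 it had 198, 185 and 198 TPM in KDSR KO, against 166, 175 and 162 TPM in CTRL. Those groups did not overlap, and the log2 change of 0.21 did not pass (adjusted p = 0.0718), although it did in 5 of 16 alternative settings (0.00842 to 0.2 over all 16). EPAS1, the second alpha subunit, had 118, 129 and 129 TPM in KDSR KO of NCIH838, against 83.8, 95.4 and 89.6 TPM in CTRL. Its groups were apart, with a log2 change of 0.48 (SE 0.06, adjusted p = 6.33e-06). In DLD1 it averaged 28 TPM in KDSR KO and 27.7 TPM in CTRL, and the change in NCIH838 exceeded that in DLD1 by 0.47 (adjusted p = 0.000894).

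ARNT, the shared partner of the alpha subunits, had 53.3, 52.5 and 53.3 TPM in KDSR KO of NCIH838, against 61.9, 67.4 and 64.7 TPM in CTRL (log2 change -0.28, adjusted p = 0.000651). EGLN1, the main prolyl hydroxylase that marks HIF for breakdown, had 59.3, 50.2 and 53.5 TPM in KDSR KO, against 65.9, 67.1 and 68.2 TPM in CTRL (log2 change -0.30, adjusted p = 0.00327). Both genes had every KDSR KO library below CTRL. EGLN3, a sister enzyme that is itself a HIF target, had 0.938, 0.963 and 1.06 TPM in KDSR KO, against 1.84, 1.53 and 1.78 TPM in CTRL, from 37 to 43 reads against 61 to 75 reads per library (log2 change -0.45, adjusted p = 0.00116). The fit of NCIH838 alone did not call EGLN3 (adjusted p = 0.0593; 0.000282 to 0.0593 over all alternatives), and its log2 value was -0.77 with limma voom. In DLD1 the EGLN3 value was positive, at 5.05 TPM in KDSR KO and 4.22 TPM in CTRL (adjusted p = 0.128). The change in NCIH838 lay below that in DLD1 by -0.66 for EGLN3 (adjusted p = 0.00316) and by -0.38 for EGLN1 (adjusted p = 0.0194; 0.051 without KDSR KO replicate 2 of NCIH838, in a range of 0.0021 to 0.051 over 21 alternatives). VHL had 59.2 TPM in KDSR KO and 61.5 TPM in CTRL of NCIH838, and 52.1 TPM in KDSR KO and 58.6 TPM in CTRL of DLD1, and did not pass.

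Within gene families, the shares of isoforms were apart between KDSR KO and CTRL for several pairs. SLC2A3 made up 57.3%, 56.3% and 57.4% of the summed TPM of SLC2A1 and SLC2A3 in KDSR KO of NCIH838, against 47.7%, 49.3% and 47.2% in CTRL. In DLD1 its share was 4.61% in KDSR KO and 4.30% in CTRL, since both transporters rose there. P4HA2 made up 22.2%, 29.1% and 25.1% of P4HA1 and P4HA2 in KDSR KO of NCIH838, against 13.5%, 13.0% and 13.5% in CTRL. EPAS1 made up 29.1 ± 2.71% of HIF1A and EPAS1 in KDSR KO of NCIH838 and 22.3 ± 0.338% in CTRL, while in DLD1 it made up 12.6 ± 0.128% in KDSR KO and 14.2 ± 0.895% in CTRL. HK2 was 26.4 ± 0.333% of the hexokinases HK1 and HK2 in KDSR KO and 23.6 ± 0.363% in CTRL of NCIH838. Groups did not overlap for any of these shares but that of SLC2A3 in DLD1. PFKP made up 76.2 ± 0.384% of phosphofructokinase mRNA in KDSR KO and 73.4 ± 0.683% in CTRL of NCIH838, and 1.64 ± 0.317% in KDSR KO and 1.66 ± 0.258% in CTRL of HUH7. In HUH7, a line without calls, groups were apart for 2 of the shares. PFKFB3 made up 86.7 ± 0.885% of PFKFB3 and PFKFB4 in KDSR KO and 84.3 ± 1.26% in CTRL. EPAS1 made up 22.1 ± 0.205% of HIF1A and EPAS1 in KDSR KO and 23.5 ± 1.15% in CTRL. Groups overlapped for the other shares computed in HUH7. The shares were not tested.

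**Figure D4:**
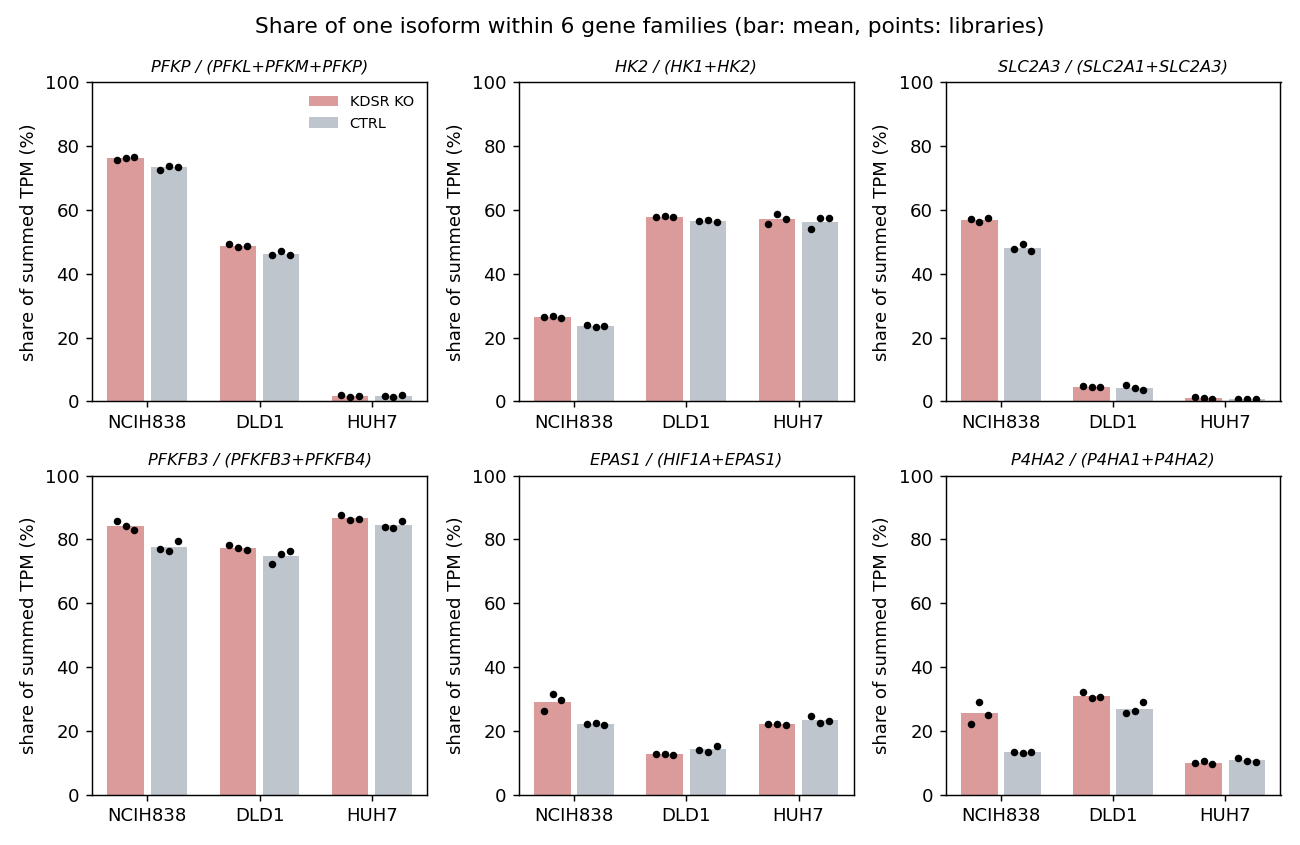
Share of the named isoform in the summed TPM of its family (percent, bars are means of 3 libraries, points are libraries), KDSR KO left of CTRL in NCIH838, DLD1 and HUH7. The share of P4HA2 in NCIH838 was 25.4% in KDSR KO and 13.3% in CTRL, while the share of PFKP differed more between lines than between groups.

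HUH7 gave 0 calls among 40 members tested by limma, and 0 with limma voom. At an unadjusted p under 0.05 there were 4 members (GPI, PFKFB4, ALDOA and PKM, all with values below 0) and 1806 of 16104 genes, or 11.2%. Log2 values of the members ran from -0.31 (ALDOA) to 0.16 (PDK3). Libraries of the groups did not overlap for 7 members, where 16.9% of all genes tested in HUH7 behaved this way. They were GPI, PFKFB4, PKM, SLC16A3 and BHLHE40, with KDSR KO below (10.1% of all genes), and PFKM and ENO2, with KDSR KO above (6.81%). For comparison, 27 of 41 members did not overlap in NCIH838 (50.8% of all genes) and 19 of 41 in DLD1 (39.2% of all genes). Targets that rose in the other lines did not pass in HUH7: NDRG1 had 13.7 TPM in KDSR KO and 14.2 TPM in CTRL, VEGFA 37.1 TPM in KDSR KO and 37.6 TPM in CTRL, and DDIT4 43.9 TPM in KDSR KO and 47.2 TPM in CTRL.

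Tests of the difference itself set NCIH838 apart from HUH7 for 20 of 39 members tested in all lines (33.7% of 12558 genes), 13 with a higher and 7 with a lower change in NCIH838 (12.2% and 21.6% of genes). After median ratio scaling these were 15 and 4. DLD1 differed from HUH7 for 6 of 39 (2.79% of genes). The change of all 6 was higher in DLD1, where 1.74% of genes were higher and 1.04% lower: SLC2A1, NDRG1, VEGFA, ADM, P4HA2 and DDIT4. NCIH838 differed from DLD1 for 15 of 39 (18.0% of genes), 8 higher and 7 lower (9.42% and 8.57% of genes). ADM, P4HA2 and BHLHE40 changed more in NCIH838 than in DLD1, and NDRG1 and SLC2A1 more in DLD1. For DDIT4 and VEGFA the difference between NCIH838 and DLD1 did not pass. These 3 comparisons share libraries, and the RNA of NCIH838 was taken later than that of the other lines, which cannot be told apart from the line.

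Other genes of glucose and pyruvate use, outside the 42, mostly fell in NCIH838. Of 48 further genes of glycolysis, gluconeogenesis and pyruvate use, 33 were tested there. Of these 33, 2 rose (HKDC1 and ADPGK) and 21 fell, where 15.7% of all genes tested rose and 26.8% fell. The median log2 change was -0.36 over the 33 and -0.09 over all genes tested. PGM1, which links glycogen to glucose phosphate, had 91.8 TPM in KDSR KO and 136 TPM in CTRL (log2 change -0.56, adjusted p = 1.97e-07). The pyruvate carboxylase gene PC had 86.0 TPM in KDSR KO and 142 TPM in CTRL (adjusted p = 3.76e-07), and PCK2, the mitochondrial enzyme of gluconeogenesis, had 34.5 TPM in KDSR KO and 62.2 TPM in CTRL (adjusted p = 8.69e-07). PDP2, a phosphatase that counters the pyruvate dehydrogenase kinases, had 16.3 TPM in KDSR KO and 26 TPM in CTRL. In DLD1, 0 of 34 rose and 3 fell (5.16% and 12.1% of all genes). The 3 were PC, PGM1 and GYS1, the last of these being glycogen synthase. PC had 15.7 TPM in KDSR KO and 19.4 TPM in CTRL of DLD1 (adjusted p = 0.00558), and PGM1 had 77.9 TPM in KDSR KO and 88.4 TPM in CTRL (adjusted p = 0.013; 0.0532 without KDSR KO replicate 2). The call of GYS1 ended in 6 of 16 alternatives, with fits without CTRL replicate 3 or KDSR KO replicate 2 among them, and that of ADPGK in NCIH838 in the fit of that line alone (adjusted p = 0.0868).

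Of 43 further HIF targets, 14 of 39 tested rose and 12 fell in NCIH838, and 7 of 32 rose and 3 fell in DLD1. Their medians were 0.07 and 0.00 in that order, closer to 0 than those of the 11 targets above. Of all genes tested, 15.7% rose and 26.8% fell in NCIH838, and 5.16% and 12.1% in DLD1. STC2, a secreted glycoprotein, had 131 TPM in KDSR KO and 56.3 TPM in CTRL of NCIH838, and FAM162A, a mitochondrial protein, had 24.2 TPM in KDSR KO and 41.1 TPM in CTRL (log2 change -0.74, adjusted p = 3.14e-08). The small MAF factor MAFF rose in both lines, with 45.6 TPM in KDSR KO and 12.5 TPM in CTRL of NCIH838, and 18.2 TPM in KDSR KO and 7.95 TPM in CTRL of DLD1. In DLD1, JMJD6 had 27.5 TPM in KDSR KO and 18.3 TPM in CTRL, and HMOX1, which breaks down heme, had 53.6 TPM in KDSR KO and 30.6 TPM in CTRL.

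Among 19 further genes of oxygen sensing and HIF control, 5 of 18 tested rose and 6 fell in NCIH838, while 0 rose and 1 of 18 fell in DLD1. The shares of all genes were 15.7% and 26.8% in NCIH838 and 5.16% and 12.1% in DLD1. ARNT2, a relative of ARNT, had 9.35 TPM in KDSR KO and 3.04 TPM in CTRL of NCIH838 (log2 change 1.35, adjusted p = 4.23e-08). CITED2, which competes with HIF for its coactivators, had 128 TPM in KDSR KO and 175 TPM in CTRL of NCIH838 (log2 change -0.45, adjusted p = 2.68e-05). CITED4 fell in both lines, with 32.7 TPM in KDSR KO and 48.8 TPM in CTRL of NCIH838, and 3.65 TPM in KDSR KO and 5.86 TPM in CTRL of DLD1, where the call ended with limma voom (adjusted p = 0.104). All 3 further lists gave 0 calls in HUH7 by limma, with 5 genes of the glycolysis list, 3 of the targets and 2 of the oxygen sensing list at an unadjusted p under 0.05.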

How the data were processed

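Total RNA of 18 cultures was sequenced. The authors deposited a table of TPM values for 27166 genes. Per the submitters' processing notes, reads were counted with featureCounts 2.0.0 on hg38. The aligner, strand setting and handling of reads with several matches are not given in the sources used here. TPM times the table's gene length gave whole reads, for 100% of values within 0.01 reads, and hence the depth of 17039634 to 20385767 reads per library; with no molecular identifiers, reads need not be independent molecules.

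Columns were joined to labels through the sample numbers. The values log2(TPM + 1) of all 18 libraries were fitted with limma 3.58.1 in R 4.3.3 (trend and robust options, 1 mean per group). P-values were adjusted by Benjamini-Hochberg over all genes tested and called under 0.05. Genes needed a mean of 1 TPM over a line's 6 libraries, or in all 3 lines for differences between lines, or in at least 1 line for control levels. For KDSR, TPM values entered a two-sided exact permutation test (p = 0.7 in NCIH838, 0.1 in DLD1 and 0.1 in HUH7, where 0.1 is the smallest that 3 against 3 can give). The procedure was tested on simulated reads with known changes. These were drawn independently, with the same spread setting for all genes and no shifts of whole libraries. The rate of false calls in the real libraries was thus not checked. Promoters came from RefSeq (GRCh38.p14), whose transcript starts can differ from the gene starts of the table. Figures used matplotlib 3.10.9.

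The members and lists were chosen with earlier results of these data known. Per-library values are given for members called in a line or in a difference between lines and for 8 set genes. Others are given by means or ranges. From further lists, up to 4 called genes of smallest p per line were eligible to be named. HKDC1 and ADPGK were named after their values were seen, and MYC was named outside this rule. Same-numbered libraries were not taken as pairs: the labels tie nothing to the number. Alternatives were other pseudocounts, filters, scalings and fits, limma voom on recovered reads, and leaving out each library.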

Additional observations from a re-analysis of the deposited data

Results flagged for a closer look

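For 6 members the change in DLD1 differed from that in HUH7 by limma's test of the difference (adjusted p under 0.05), each higher in DLD1. The log2 differences were 1.32 for DDIT4, 1.16 for NDRG1, 0.71 for ADM, 0.66 for P4HA2, 0.48 for VEGFA and 0.45 for SLC2A1.

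NCIH838 and HUH7 differed in the change of 20 members. Among members listed as HIF targets, the log2 differences called were 1.73 for ADM, 1.35 for P4HA2, 1.17 for DDIT4, 0.98 for BHLHE40, 0.70 for VEGFA and 0.39 for NDRG1. Higher changes were also seen for PFKFB3 (1.06), PFKFB4 (0.68), EPAS1 (0.54), HK2 (0.39), SLC16A3 (0.29), PKM (0.24) and HK1 (0.23). SLC16A3 and PKM passed in this test of the difference and in neither line alone: PKM had 758, 829 and 767 TPM in KDSR KO and 701, 724 and 741 TPM in CTRL of NCIH838, against 1104, 1082 and 1085 TPM in KDSR KO and 1246, 1157 and 1149 TPM in CTRL of HUH7. Both calls ended when some single libraries were left out: that of PKM ended without CTRL replicate 1 or KDSR KO replicate 2 of HUH7, or without CTRL replicate 1 or KDSR KO replicate 2 of NCIH838 (adjusted p 0.0136 to 0.0653 over 21 alternatives), and that of SLC16A3 without KDSR KO replicate 1 or 3 of HUH7, or without CTRL replicate 1 or KDSR KO replicate 2 of NCIH838 (0.00529 to 0.0681). Lower changes in NCIH838 were those of LDHA (-0.60), EGLN1 (-0.44), EGLN3 (-0.42), PGAM1 (-0.25), PFKM (-0.25), ARNT (-0.23) and TPI1 (-0.20). With median ratio scaling PFKM (adjusted p = 0.0541) and TPI1 (0.125) did not pass. The call of EGLN3 ended without CTRL replicate 2 or KDSR KO replicate 2 or 3 of HUH7, or without CTRL replicate 1 or 3 of NCIH838 (adjusted p 0.00742 to 0.0657), and with a filter at a mean of 5 TPM the gene was not tested. That of ARNT ended with median ratio scaling, with quantile normalization and in 7 of the 12 fits without a library, the exceptions being those without CTRL replicate 2 or KDSR KO replicate 2 of HUH7, or without CTRL replicate 1 or KDSR KO replicate 1 or 3 of NCIH838 (0.00477 to 0.104).

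NCIH838 and DLD1 differed in the change of 15 members. It was higher in NCIH838 for ADM (1.02), PFKFB3 (1.0), BHLHE40 (0.74), P4HA2 (0.69), PFKFB4 (0.55), EPAS1 (0.47), HK2 (0.40) and HK1 (0.27). It was lower for NDRG1 (-0.78), EGLN3 (-0.66), LDHA (-0.49), EGLN1 (-0.38), PGK1 (-0.37), SLC2A1 (-0.34) and ENO2 (-0.27). Of these calls, ENO2 ended in 10, LDHA in 8 and EGLN1 in 1 of 21 alternatives, and the other 12 ended in none except EGLN3, which a filter at a mean of 5 TPM left untested.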

How the results depend on the processing

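Changes within a line were recomputed under 10 other settings, differences between lines and between control cells under 9 (a fit of each line alone gives neither), and each without every library of its lines. Of the changes and differences called, 0 changed sign. Between control cells 1 member did, PGAM1 in NCIH838 against DLD1 with quantile normalization, where it was not called. Of the differences called, 6 of 6 between DLD1 and HUH7, 14 of 20 between NCIH838 and HUH7 and 12 of 15 between NCIH838 and DLD1 passed under every alternative that tested them. Of the calls in the further lists, 59 of 74 in NCIH838 and 20 of 27 in DLD1 did. Members called in NCIH838 numbered 21 to 27 (22 to 23 without a library), in DLD1 8 to 15 (8 to 11 without a library) and in HUH7 0 throughout. Of the members called, 20 of 22 in NCIH838 and 8 of 12 in DLD1 kept their call under every alternative. The exceptions were LDHB and EGLN3 in NCIH838, and GPI, PFKL, PGK1 and BNIP3L in DLD1. In NCIH838, 8 members not called here passed under at least 1 alternative, and in DLD1 3 did (GAPDH, HIF1A and P4HA1). The count of all genes called in HUH7 was 9 with no filter on low values, 2 with median ratio scaling, 2 with quantile normalization, 5 without mitochondrially encoded genes, 7 with plain eBayes and 0 to 8 without a library (8 without CTRL replicate 3). In DLD1 it was 1609 to 2406 without a library, lowest without CTRL replicate 3, with 1749 without KDSR KO replicate 3, against 2674 in all. The cause was not tested. With the replicate block, 23 members were called in NCIH838, 11 in DLD1 and 0 in HUH7. Same-numbered libraries correlated at 0.081 to 0.252 in NCIH838, -0.057 to 0.029 in DLD1 and -0.067 to 0.155 in HUH7, and 6, 0 and 2 of 6 libraries in that order correlated best with their own number. Mitochondrially encoded genes took 8.35% to 9.59% of TPM in KDSR KO and 6.32% to 8.96% in CTRL of DLD1, where 14 members were called without them. CA9 in NCIH838 and DLD1 and LDHB in HUH7 had 0 to 7 reads per library, too few to see a fall.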
